A study of Mus musculus with 9 samples.

Results

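The endothelial leukocyte adhesion molecules are the surface proteins by which a vessel lining captures white blood cells and lets them pass. The genes described here are 6 of the 17179 gene symbols listed in the series. They were chosen by symbol, with earlier results of these data already known. They comprise the inducible adhesion genes Sele, Selp, Icam1 and Vcam1, and Pecam1 and Cdh5, which mark endothelial identity and serve as a reference within each library. All 6 passed the filter on low values, among 12997 genes that were tested.

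Expression was measured by bulk RNA sequencing of 9 libraries of aorta from C57BL/6J mice, with values in FPKM (fragments scaled for transcript length and library size). β-Aminopropionitrile (BAPN), which blocks lysyl oxidase and with it the cross-linking of the elastic and collagen fibres of the vessel wall, was fed at 1 g/kg/day to induce aortic dissection, and mice were killed on day 28. The normal group (2 libraries) drank distilled water, the BAPN group (2 libraries) received BAPN, and every other group received BAPN as well. TPA (2 libraries), labelled as an AP-1 activator, was injected into the peritoneum from day 1 at 50 ng/g/day. T-5224 (2 libraries), labelled as an inhibitor of this transcription factor, was gavaged at 5 mg/kg/day and coQ10 (1 library), the respiratory chain carrier coenzyme Q10, at 10 mg/kg/day, both from day 7 or 14. The T-5224 libraries are titled 2 weeks (replicate 1) and 3 weeks (replicate 2), and they were taken as replicates of 1 treatment. No source used here says whether these titles stand for gavage begun on different days, and if they do, the 2 libraries are not replicates. Leaving out either of them took the genes called in BAPN against normal from 424 to 3633 or 3670. The coQ10 label is spelled co110 and was read as coQ10. The protocol names 12 mice for each treatment. The sources used here do not give the age or sex of the mice or how many were pooled for a library, so p-values measure only the spread between libraries, which may be technical.

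Leukocyte capture proceeds in steps. E-selectin and P-selectin (Sele, Selp) catch carbohydrate ligands on passing cells and make them roll, ICAM-1 and VCAM-1 (Icam1, Vcam1) hold leukocyte integrins and arrest them, and PECAM-1 and VE-cadherin (Pecam1, Cdh5) sit at the junctions through which cells leave the vessel. In mouse endothelium, cytokines that activate NF-kB and AP-1 induce the selectins, Icam1 and Vcam1, whereas Pecam1 and Cdh5 are expressed constitutively. Some members are not exclusive to endothelium: platelets carry Selp and Pecam1, leukocytes carry Icam1 and Pecam1, and smooth muscle cells and macrophages can express Vcam1.

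In GRCm38 coordinates (mm10), Sele lies at chr1:164039614-164058487 and Selp at chr1:164115264-164150026. Icam1 lies at chr9:21015940-21028814, Vcam1 at chr3:116110020-116129688, Pecam1 at chr11:106654213-106715281 and Cdh5 at chr8:104101613-104144504. The 250 bases before the annotated start are shown because AP-1 and NF-kB are known to act on this family. TPA is labelled as an activator of AP-1 and T-5224 as its inhibitor. They come from RefSeq (GRCm38.p6), which gave promoters for only 3 of the 6 members. Without windows for Vcam1, Pecam1 and Cdh5, no contrast with these members could be made. All 3 windows are on the plus strand: Sele at chr1:164047984-164048233, Selp at chr1:164115014-164115263 and Icam1 at chr9:21015690-21015939. The Sele window lies inside the gene's annotated span, which begins upstream of this start. Capitals mark letters that match TGANTCA, a loose AP-1 motif in which N is any base, or GGANNTTCC.
Sele: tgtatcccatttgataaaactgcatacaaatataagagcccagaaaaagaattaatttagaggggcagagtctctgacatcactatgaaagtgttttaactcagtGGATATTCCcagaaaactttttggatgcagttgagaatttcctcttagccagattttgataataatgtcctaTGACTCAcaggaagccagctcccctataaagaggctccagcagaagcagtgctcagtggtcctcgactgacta
Selp: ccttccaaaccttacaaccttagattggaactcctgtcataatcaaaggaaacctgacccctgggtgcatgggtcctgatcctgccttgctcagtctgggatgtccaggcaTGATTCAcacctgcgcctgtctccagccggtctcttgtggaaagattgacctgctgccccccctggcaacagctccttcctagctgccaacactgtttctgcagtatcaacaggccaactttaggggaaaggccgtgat
Icam1: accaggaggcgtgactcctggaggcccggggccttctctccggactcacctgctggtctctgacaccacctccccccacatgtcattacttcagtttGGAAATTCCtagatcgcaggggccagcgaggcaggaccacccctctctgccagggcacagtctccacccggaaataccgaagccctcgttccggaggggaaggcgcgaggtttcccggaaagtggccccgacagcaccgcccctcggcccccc

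Both strands were searched. The loose AP-1 motif TGANTCA was found in Sele as TGACTCA, 73 to 67 bases before the start. In Selp it was found as TGATTCA, 139 to 133 bases before the start, a match that rests on allowing any base at the centre. No match lay in the Icam1 window. GGANNTTCC, whose letters were chosen after the windows had been read, was found in Sele as GGATATTCC (145 to 137 bases before the start) and in Icam1 as GGAAATTCC (153 to 145 bases before it). No match to the 10-base kB consensus lay in the 3 windows, and no 2 motif matches overlapped. Of 32536 promoter windows of this length, 6.73% held TGANTCA, 3.59% held GGANNTTCC and 7.28% held the kB consensus. A match is a string of letters and not a measured binding site.

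The libraries differed in blood and in neighbouring tissue. They listed 13982 to 16204 genes, and no counts accompany FPKM, so the depth is unknown. A rough guide came from short genes with low values, 10 to 42 in each of 8 libraries. The product of FPKM and transcript length was kept only within preset limits, and its median was taken as 1 fragment. These limits largely fixed the result, so it is not a measured depth. It put 1 fragment of Sele at 0.0345 to 0.0448 FPKM. On that guide Sele had about 333 and 344 fragments in BAPN and 7.24 to 28.4 in the other 6 of these libraries. Of all FPKM, haemoglobin genes made up 68.9% to 74.1% in BAPN and TPA, 40.8% and 11.2% in T-5224, 5.4% in coQ10 and 1.03% to 1.25% in normal. Airway epithelial markers had a mean of 6.74 (log2 of FPKM + 1) in normal replicate 1, 3.40 to 4.73 in TPA and T-5224 replicate 2, and at most 1.09 in the other 5. All 9 smooth muscle markers and all 19 endothelial identity markers were listed in every library. So were all the macrophage and fibroblast markers, and a listing requires only a nonzero level, so it does not identify the tissue. In such bulk tissue, fewer cells of a type and less RNA per cell cannot be told apart.

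The selectins and Icam1 were high in the BAPN libraries and low in every other library, including those of mice that received BAPN with TPA, T-5224 or coQ10. Sele, which is scarcely made by resting endothelium, had 15.4 and 12.1 FPKM in the BAPN libraries, against 0.78 and 0.36 in normal, 0.25 and 1.25 in T-5224, 1.00 and 0.99 in TPA and 0.51 in coQ10. Both BAPN libraries stood above all 7 others. Among those 7, TPA lay just above normal, T-5224 lay on both sides of these groups and coQ10 lay between the normal libraries. The lower BAPN library was 9.65 times the highest of the other 7. Among the genes listed in a library, Sele stood at percentiles 74.1 and 71.0 in BAPN and between 9.34 and 19.8 elsewhere.

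Selp, the selectin that endothelium and platelets store and release to the surface, had 65.5 and 37.6 FPKM in BAPN and 4.24 and 3.12 FPKM in normal. Its level was 5.21 and 4.55 FPKM in T-5224, 6.14 and 8.89 FPKM in TPA and 9.72 FPKM in coQ10. BAPN was again above all other libraries, by 3.87 times at the nearest. All 5 libraries of the treated groups lay above both normal libraries, at the nearest by 4.55 against 4.24 FPKM. The share of all genes that did so was not counted, so no conclusion is drawn from it. Icam1, the ligand of the leukocyte integrin LFA-1, had 117 and 104 FPKM in BAPN, 18.9 and 8.49 in normal, 14.6 and 10.6 in T-5224, 25.5 and 19.6 in TPA and 21.1 in coQ10. Here the lower BAPN library was 4.08 times the highest of the other 7, and the T-5224 values lay between the normal ones. Having both BAPN libraries above each of the other 7 was shared by 6.12% of tested genes.

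Vcam1, the ligand of the integrin VLA-4, had another order. It was highest in coQ10 at 49.7 FPKM and TPA replicate 1 at 42.4 FPKM, followed by 31.0 FPKM in BAPN replicate 1 and 30.1 FPKM in T-5224 replicate 1. Lower values were 23.1 FPKM in BAPN replicate 2, 17.8 FPKM in TPA replicate 2, 16.6 and 13.1 FPKM in normal and 11.4 FPKM in T-5224 replicate 2. Its BAPN libraries were above the normal libraries, but TPA and T-5224 each held a library on either side of BAPN replicate 2, and replicates of those treatments lay further apart than BAPN lay from normal.

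The identity genes did not share the BAPN peak. Pecam1 had 208 and 207 FPKM in normal, 189 and 175 in BAPN, 113 and 375 in T-5224, 136 and 137 in TPA and 244 in coQ10. The T-5224 libraries held its lowest and its highest value, and its level stood at or above percentile 95.1 in every library. Cdh5 had 137 and 76.8 FPKM in normal, 108 and 84.3 in BAPN, 20.4 and 103 in T-5224, 56.4 and 75.2 in TPA and 120.3 in coQ10. Its BAPN values lay between the normal values, and T-5224 replicate 1 stood lowest. From lowest to highest library the range was 61.6-fold for Sele, 21.0-fold for Selp and 13.7-fold for Icam1, against 4.35-fold for Vcam1, 3.31-fold for Pecam1 and 6.73-fold for Cdh5.

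**Figure D1:**
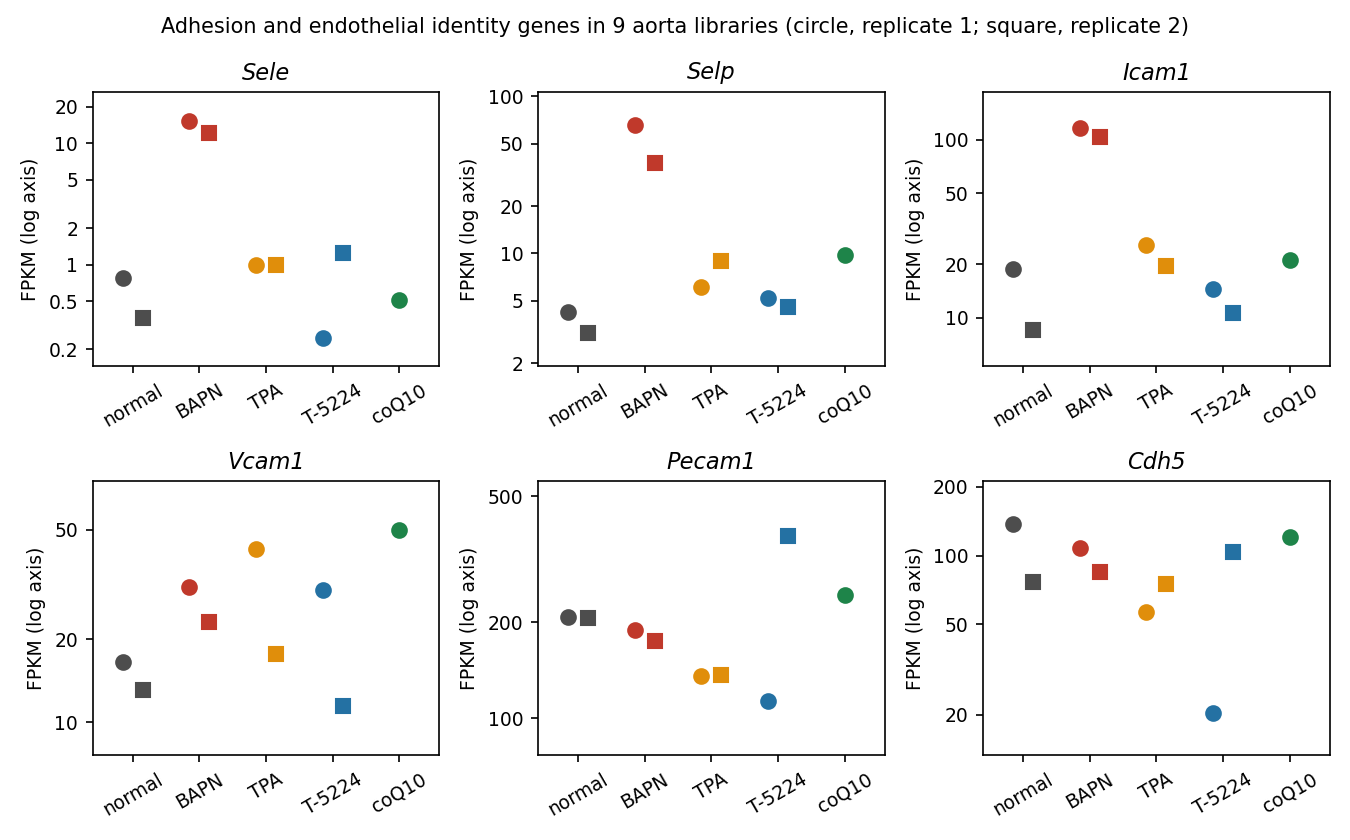
Level of each gene in FPKM (log axis) in the 9 libraries, by group; each point is 1 library, a circle for replicate 1 and a square for replicate 2. Sele, Selp and Icam1 were highest in the 2 BAPN libraries, whereas Vcam1 was highest in coQ10 and Pecam1 in T-5224 replicate 2.

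BAPN against normal tested what BAPN feeding does to these genes, and 3 of the 6 passed, all of them higher in BAPN. Differences were tested by limma on log2 of FPKM + 1, a scale that understates the change of low genes such as Sele, with Benjamini-Hochberg adjustment over all 12997 genes and a threshold of 0.05. Over all genes, 3.26% passed and 0.9% rose, and 32.4% were under an unadjusted p of 0.05. The 6 members were chosen with earlier results of these data known, so their share is not that of a blind choice. Sele rose from 0.57 ± 0.297 to 13.7 ± 2.37 FPKM (mean ± SD, n = 2 libraries in each group), a log2 difference of 3.23 (SE 0.418, limma adjusted p = 0.0339) and a ratio of means of 24.1. Selp rose from 3.68 ± 0.792 to 51.6 ± 19.7 FPKM, by 3.45 log2 (SE 0.361, limma adjusted p = 0.0256), a 14.0-fold ratio. Icam1 rose from 13.7 ± 7.33 to 110.4 ± 8.87 FPKM, by 3.02 log2 (SE 0.407, limma adjusted p = 0.037), an 8.07-fold ratio. By size of change they ranked 259, 197 and 322 among the 12997 genes.

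The remaining members did not pass. Vcam1 had 27.1 ± 5.61 FPKM in BAPN and 14.9 ± 2.45 in normal, a log2 difference of 0.82 (95% interval -0.52 to 2.15, limma adjusted p = 0.341). For Pecam1, 182 ± 9.92 FPKM in BAPN against 207 ± 0.87 in normal gave -0.18 (interval -1.49 to 1.12, limma adjusted p = 0.835), and for Cdh5, 96.2 ± 16.9 against 107 ± 42.9 FPKM gave -0.11 (interval -1.83 to 1.61, limma adjusted p = 0.931). The median over all genes lay at -0.51 in this comparison, and median-of-ratios scaling moved it to -0.014. Relative to the deposited median, the differences were 3.75 for Sele, 3.96 for Selp, 3.53 for Icam1, 1.33 for Vcam1, 0.33 for Pecam1 and 0.41 for Cdh5. The sign for the identity genes thus followed the scaling, at 0.40 for Pecam1 and 0.48 for Cdh5 after median-of-ratios scaling. The split of all calls moved with it, from 117 risen and 307 fallen genes as deposited to 196 and 30, or to 18 and 2 with haemoglobin left out.

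The 3 calls were sensitive to the makeup of the fit. Leaving out any 1 of the normal, BAPN or TPA libraries put the limma adjusted p at 0.0609 to 0.246 for Sele, 0.0537 to 0.174 for Selp and 0.0575 to 0.246 for Icam1, while a fit of only the compared groups gave 0.0609, 0.0609 and 0.0642. Without haemoglobin genes Sele was at 0.053 and Icam1 at 0.0756, and with median-of-ratios scaling all 3 passed (0.0171 for Sele, 0.00783 for Selp and 0.0112 for Icam1). Their log2 differences kept their sign in all 16 alternatives, at 3.04 to 4.43, 3.05 to 3.96 and 2.49 to 3.58.

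The treated groups were each set against the same 2 BAPN libraries, so the comparisons share controls, and no member passed in any of them. For TPA against BAPN, which asked whether an AP-1 activator alters the BAPN profile, the log2 difference of Sele was -2.88 (interval -3.87 to -1.88, limma adjusted p = 0.195). It was -2.59 for Selp (-3.45 to -1.73, limma adjusted p = 0.169) and -2.25 for Icam1 (-3.22 to -1.29, limma adjusted p = 0.277). Vcam1 was at 0.039 (-1.29 to 1.37), Pecam1 at -0.42 (-1.72 to 0.89) and Cdh5 at -0.54 (-2.27 to 1.18). These 3 members had limma adjusted p of 0.985, 0.793 and 0.796. With 0 of 6 members called, 3 were under an unadjusted p of 0.05, as were 10.2% of all genes, and 0.0385% of all genes passed. In a fit of the TPA and BAPN libraries alone, 3 of 6 members passed, and so did 972 of the 12997 genes.

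T-5224 against BAPN asked the same of an AP-1 inhibitor. The log2 difference was -3.13 for Sele (interval -4.12 to -2.13, limma adjusted p = 0.101), -3.11 for Selp (-3.97 to -2.25, limma adjusted p = 0.0798) and -3.05 for Icam1 (-4.02 to -2.08, limma adjusted p = 0.101). Vcam1 was at -0.50 (-1.83 to 0.83, limma adjusted p = 0.644), Pecam1 at 0.18 (-1.13 to 1.48, limma adjusted p = 0.882) and Cdh5 at -1.03 (-2.75 to 0.69, limma adjusted p = 0.46). Here too limma called 0 of 6 members, and 0.0308% of all genes. Under an unadjusted p of 0.05 were 3 members and 18.3% of all genes. After median-of-ratios scaling 3 of 6 members and 35 genes in all passed.

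The single coQ10 library, assumed to vary like the other groups, differed from BAPN by -3.28 log2 for Sele (-4.50 to -2.06), -2.24 for Selp (-3.29 to -1.19) and -2.33 for Icam1 (-3.51 to -1.14), each at a limma adjusted p of 0.185. Vcam1 was at 0.87 (-0.76 to 2.50, limma adjusted p = 0.509), Pecam1 at 0.42 (-1.18 to 2.02, 0.758) and Cdh5 at 0.33 (-1.78 to 2.44, 0.868). Again 0 of 6 members were called by limma, against 0.0154% of all genes, and 3 were under an unadjusted p of 0.05, against 19.8% of all genes. Without T-5224 replicate 2 in the fit, Sele passed at 0.0475, as 1 of 104 genes. With normal replicate 1 and T-5224 replicate 2 both left out, an alternative chosen after seeing the data, 3 members passed in BAPN against normal among 4032 genes, and against BAPN 4 passed in T-5224 among 2245 genes, 3 in TPA among 1023 and 3 in coQ10 among 2967. Members passed there beside 7.87% to 31.0% of all genes, and the fourth in T-5224 was Cdh5, at a limma adjusted p of 0.0162.

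**Figure D2:**
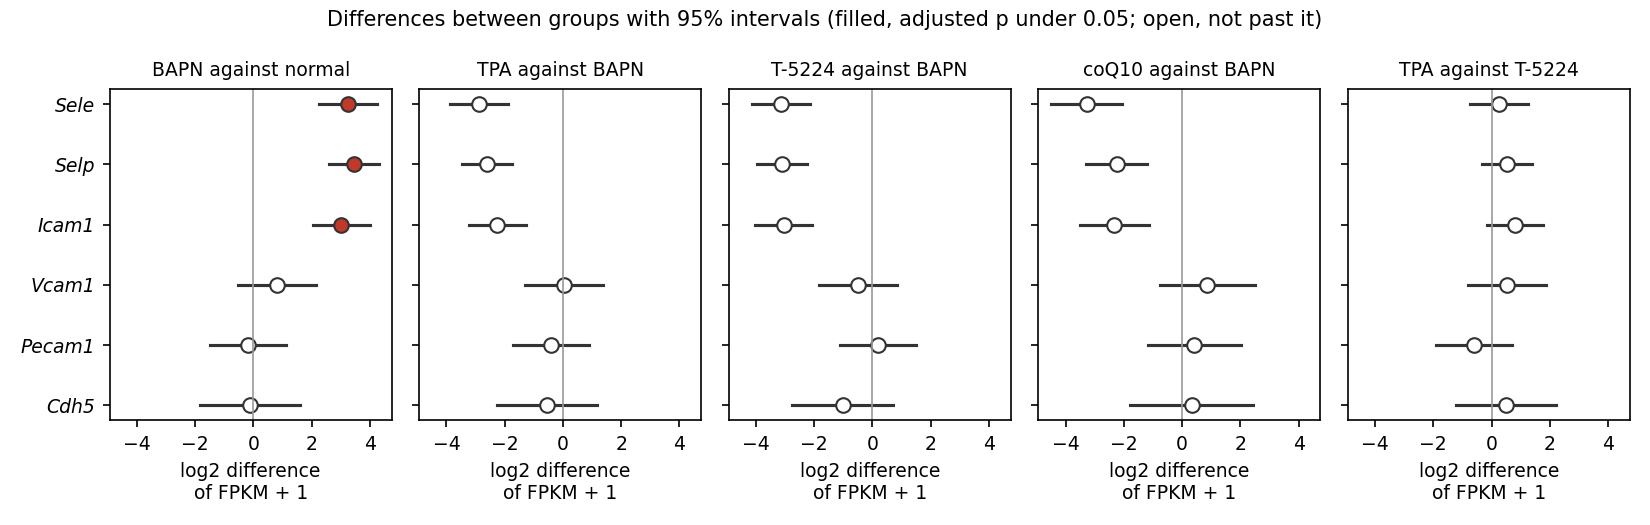
Log2 difference of FPKM + 1 for the 6 genes in the 5 comparisons; points are limma estimates, bars their 95% intervals, filled points passed an adjusted p of 0.05. The filled points are Sele, Selp and Icam1 in BAPN against normal, and the same genes lie at -2.24 or below in each treatment against BAPN.

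TPA and T-5224, which have opposite labelled actions on AP-1, were compared directly. The log2 differences, TPA minus T-5224, were 0.25 for Sele (interval -0.75 to 1.25), 0.52 for Selp (-0.34 to 1.38) and 0.80 for Icam1 (-0.17 to 1.76). For the others they were 0.54 for Vcam1 (-0.80 to 1.87), -0.59 for Pecam1 (-1.90 to 0.71) and 0.48 for Cdh5 (-1.24 to 2.20). No member passed (limma adjusted p 0.502 to 0.845), 0 were under an unadjusted p of 0.05 against 10.9% of all genes, and 0.0154% of all genes were called. Sele in T-5224 lay on both sides of TPA. Selp and Icam1 were higher in both TPA libraries than in both T-5224 libraries. The share of all genes that separated in this way was not counted, so no conclusion is drawn from it. Without T-5224 replicate 1, limma called 1 member, Pecam1, at an adjusted p of 0.0415, among 666 genes.

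Set against the geometric mean of Pecam1 and Cdh5 in the same library, Sele, Selp and Icam1 were again highest in BAPN, and the order of the other libraries changed. Sele amounted to 10.8% and 9.92% of that mean FPKM in BAPN, 0.461% and 0.286% in normal, 0.52% and 0.635% in T-5224, 1.14% and 0.976% in TPA and 0.297% in coQ10. Icam1 amounted to 81.5% and 85.6% in BAPN, 11.2% and 6.74% in normal, 30.3% and 5.39% in T-5224, 29.1% and 19.3% in TPA and 12.3% in coQ10. Selp amounted to 45.8% and 30.9% in BAPN, 2.51% and 2.48% in normal, 10.8% and 2.31% in T-5224, 7.01% and 8.77% in TPA and 5.67% in coQ10. Each of these 3 genes was higher in both BAPN libraries than in any other library on this scale. The share of all genes that did the same on this scale was not counted. Vcam1 ran from 5.81% in T-5224 replicate 2 to 62.6% in T-5224 replicate 1, so that a single treatment spanned its whole range, with 21.7% and 19.0% in BAPN and 9.82% and 10.4% in normal. The reference itself was uneven in T-5224, where Pecam1 was 5.55 and 3.63 times Cdh5, against 1.51 to 2.69 times in the other 7 libraries.

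**Figure D3:**
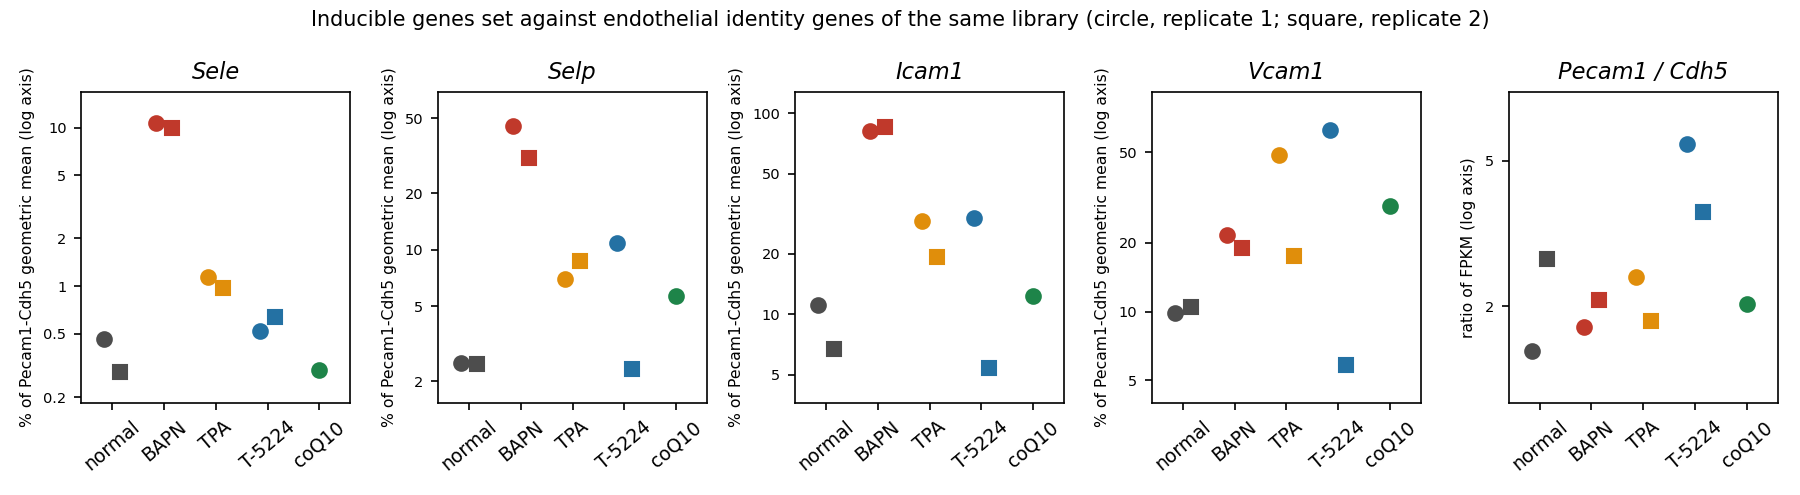
FPKM of Sele, Selp, Icam1 and Vcam1 as a percentage of the geometric mean of Pecam1 and Cdh5 in the same library, and the ratio of Pecam1 to Cdh5 (log axes); each point is 1 library, a circle for replicate 1 and a square for replicate 2. BAPN is highest for the first 3 genes, and the T-5224 libraries lie far apart for Icam1 and Vcam1.

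After the library mean log2 level of Pecam1 and Cdh5 had been subtracted from every gene, Sele differed by 3.38 between BAPN and normal (SE 0.88, limma adjusted p = 0.154), Selp by 3.59 (SE 0.884, limma adjusted p = 0.117), Icam1 by 3.16 (SE 0.85, limma adjusted p = 0.185) and Vcam1 by 0.96 (SE 0.964, limma adjusted p = 0.895). These differences were close in size to the unreferenced ones and their standard errors larger. No member of the 4 passed here, while 0.392% of all genes passed, and 3 members and 8.11% of all genes were under an unadjusted p of 0.05. Without T-5224 replicate 1, and likewise without T-5224 replicate 2, the 3 genes passed at limma adjusted p of 0.00273 to 0.00674, when 1894 and 1960 of the 12997 genes passed.

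On the same referenced scale, TPA minus BAPN was -2.39 for Sele, -2.11 for Selp, -1.77 for Icam1 and 0.52 for Vcam1. For T-5224 minus BAPN the values were -2.70, -2.68, -2.62 and -0.072, and for coQ10 minus BAPN -3.65, -2.62, -2.70 and 0.49. Each treatment group thus had lower values of Sele, Selp and Icam1 than BAPN on this scale, and limma called none of the 4 genes in any of these comparisons. Under an unadjusted p of 0.05 were 2, 3 and 3 of them in that order, against 5.01%, 6.31% and 5.0% of all genes. Over all genes, limma called 0.0308% for TPA, 0% for T-5224 and 0.0154% for coQ10. For TPA against T-5224 the differences were 0.31, 0.57, 0.85 and 0.59, 0 of the 4 genes were called or under an unadjusted p of 0.05, and 0.00769% of all genes were called and 2.58% under that p. Without T-5224 replicate 1 these differences were 0.88, 1.65, 2.06 and 2.25, and without T-5224 replicate 2 they were -0.27, -0.51, -0.36 and -1.07. For T-5224 minus BAPN, Vcam1 was -1.73 and 1.59 in the same fits, so that 1 library set the sign of these values.

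Across the 9 libraries, Pearson's r of log2 levels was 0.939 for Sele and Selp, 0.933 for Sele and Icam1 and 0.961 for Selp and Icam1. Vcam1 correlated with these at 0.105, 0.356 and 0.403, and Pecam1 with Cdh5 at 0.706. Libraries share groups and blood content, so these are descriptions of 9 points, and for the first 3 genes they mostly separate 2 BAPN libraries from 7 others. The tested genes most like Sele by this measure were Arhgap36 (r = 0.979), Csf3 (0.972), which encodes the cytokine G-CSF, and Rnf112 (0.97). Those most like Selp were the aggrecanase gene Adamts4 (0.988), Ccdc28a (0.986) and Sbno2 (0.967), and those most like Icam1 were Tnfaip3 (0.976), a feedback inhibitor of NF-kB, Dpysl4 (0.973) and Ccdc28a (0.968). For Vcam1 they were the macrophage elastase gene Mmp12 (0.948), the cathepsin K gene Ctsk (0.899) and Hacd4 (0.883). Pecam1 was nearest to Eef2 (0.981), Eid2b (0.968) and Sgk1 (0.962), and Cdh5 to Sema7a (0.964), Adgrg1 (0.96) and Ablim3 (0.955).

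Of the genes known to act upstream of the inducible members, some passed in BAPN against normal. Of 10 tested NF-kB subunits and feedback genes, 3 rose and 0 fell, with a list median of 1.25 against -0.51 over all genes. Tnfaip3 rose by 2.81 log2 (SE 0.358, limma adjusted p = 0.0339), with 28.6 and 23.7 FPKM in BAPN and 3.63 and 2.22 in normal. The noncanonical subunit Relb rose by 1.78 (limma adjusted p = 0.0458) and the apoptosis inhibitor Birc3 by 1.87 (limma adjusted p = 0.0474), while the inhibitor Nfkbie had a difference of 2.14 (limma adjusted p = 0.0527). All 3 calls were lost with haemoglobin left out and without any 1 of the normal, BAPN or TPA libraries. Against BAPN, the values of all 10 genes were lower in TPA and in T-5224 under each scaling, and limma called none of them as deposited.

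Of 12 AP-1 subunits, 1 rose and 0 fell, with a median of 1.38. Junb rose by 2.59 log2 (SE 0.341, limma adjusted p = 0.0339), with 282 and 265 FPKM in BAPN and 49.6 and 40.3 in normal. In the treated groups Junb had 168 and 171 FPKM in T-5224, 326 and 207 in TPA and 163 in coQ10, all above normal, and the TPA values lay on both sides of BAPN. Its order across treatments thus differed from that of Sele, Selp and Icam1, which in TPA were far below both BAPN libraries. Fosb had a difference of 2.28 (limma adjusted p = 0.0547), Atf3 of 2.87 (limma adjusted p = 0.0552) and Fosl1 of 3.00 (limma adjusted p = 0.0684). Among the cytokine inducers and their receptors, 7 of 13 were tested and 1 rose, Il1b, the interleukin-1β gene, by 5.56 (SE 0.975, limma adjusted p = 0.0474). It had 87.8 and 49.0 FPKM in BAPN, 0.3 and 0.53 in normal, 9.33 and 1.96 in T-5224, 93.0 and 12.1 in TPA and 1.25 in coQ10. Il1b in TPA replicate 1 was above both BAPN libraries, and in TPA replicate 2 it was below them. With haemoglobin left out neither gene passed (limma adjusted p = 0.0707 for Junb and 0.0872 for Il1b). Without any 1 of the normal, BAPN or TPA libraries Junb was at 0.0738 to 0.246 and Il1b at 0.0948 to 0.246, and Junb was at 0.0609 with only the compared groups.

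Among the leukocyte partners and the other adhesion genes, a single gene passed. Of 13 leukocyte counter-receptor genes tested, 0 rose and 1 fell, with a median of 0.93. Glg1, the E-selectin ligand ESL-1, fell by 3.15 log2 (SE 0.494, limma adjusted p = 0.0458), from 26.0 and 47.6 FPKM in normal to 2.62 and 3.60 in BAPN, and had a difference of -2.64 with median-of-ratios scaling, where it no longer passed (limma adjusted p = 0.0569). With haemoglobin left out it was at 0.11, and without any 1 of the normal, BAPN or TPA libraries at 0.0738 to 0.246. Which cells of this bulk tissue, leukocytes or cells of the wall, supplied the Glg1 RNA was not tested. Podxl, a sialomucin of endothelium and other cells, was at -1.79 (limma adjusted p = 0.086). None of 8 selectin ligand glycosylation genes passed (median -0.42), with the smallest p for Tpst1, a sulfotransferase that modifies PSGL-1, at -0.88 (limma adjusted p = 0.165). None of 10 other junction and adhesion genes passed either (median -0.47), among them Cd99l2 at -1.18 (limma adjusted p = 0.054), Jam3 at -1.08 (0.0975) and L1cam at 1.66 (0.142).

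No general marker of endothelium passed the test. Of 19 endothelial identity markers, limma called 0 in any of the 5 comparisons. In BAPN against normal 9 were higher and 10 lower as deposited, with a median of -0.30, and 12 higher and 7 lower with median-of-ratios scaling. Against BAPN, 15 of the 19 were lower in T-5224 and 15 in TPA, and 14 to 17 under the other scalings, with medians of -0.44 and -0.27 as deposited. In coQ10 14 were higher as deposited, and 6 with median-of-ratios scaling. Their part in the lower Sele, Selp and Icam1 of the treated groups was not tested. Their mean log2 level was 5.18 and 4.67 in normal, 4.97 and 4.59 in BAPN, 3.46 and 5.28 in T-5224, 4.25 and 4.47 in TPA and 5.05 in coQ10. T-5224 replicate 1 was lowest and replicate 2 highest, the same 2 libraries that stood at the ends for Pecam1. Eng, an endothelial receptor of the TGF-beta family, was at -1.47 (limma adjusted p = 0.0552) and the VEGF receptor Kdr at -1.49 (limma adjusted p = 0.106).

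Some markers of blood cells rose in BAPN. Of 10 platelet markers 1 rose, Pf4, by 3.21 log2 (limma adjusted p = 0.0458), and all 10 were higher in BAPN under each scaling. The Pf4 call was lost with haemoglobin left out (0.0888), with only the compared groups (0.0505) and without any 1 of the normal, BAPN or TPA libraries (0.0769 to 0.246). Their summed level was 656 and 712 FPKM in BAPN, 708 and 189 in T-5224, 536 and 209 in TPA, 45.5 in coQ10 and 71.0 and 79.1 in normal, with 5 of 10 at 0 in T-5224 replicate 2 and none at 0 elsewhere. In T-5224 replicate 1, with a platelet sum in the range of BAPN, Selp was 5.21 FPKM and Sele 0.25 FPKM. That library also had the lowest endothelial identity mean of the 9 libraries, at 3.46. In TPA replicate 1 Selp and Sele were 6.14 and 1.00 FPKM. Of 8 tested neutrophil markers 2 rose, the calprotectin genes S100a8 by 5.64 and S100a9 by 5.80 (limma adjusted p = 0.0426 and 0.0195). S100a8 did not pass once any single normal, BAPN or TPA library was left out (0.0765 to 0.246), nor S100a9 without either BAPN library or normal replicate 1 (0.0655 to 0.164). The mean over all 9 listed neutrophil markers was 4.65 and 3.90 in BAPN, 2.35 and 2.57 in T-5224 and 4.50 and 2.94 in TPA. It was 1.94 in coQ10 and 1.77 and 1.37 in normal, so that TPA replicate 1 lay among the BAPN values. Of 8 tested red blood cell markers 5 rose. The mean log2 level over all 9 listed was 10.83 and 10.54 in TPA, above the 10.41 and 10.51 of BAPN. What these cells contributed to the levels of Selp, Icam1 and Pecam1 was not tested.

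Smooth muscle markers were lower in BAPN. Of 9 smooth muscle markers 2 fell, with a median of -3.63, and their mean log2 level was 6.18 and 5.10 in BAPN against 8.55 and 9.51 in normal. None passed among 10 macrophage markers (median -0.071), 10 lymphocyte markers (median 2.59), 8 fibroblast markers (median -0.47), 5 lymphatic endothelial markers (median 0.69) or 8 airway epithelial markers (median -2.53). The lymphocyte mean was 5.01 in BAPN replicate 2 and 2.42 in BAPN replicate 1. The part of lymphocytes in the levels of Sele, Selp and Icam1 was not tested. The red blood cell and smooth muscle calls, too, were each lost without any 1 of the normal, BAPN or TPA libraries. In the other 4 comparisons limma called no gene of any of these lists.

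**Figure D4:**
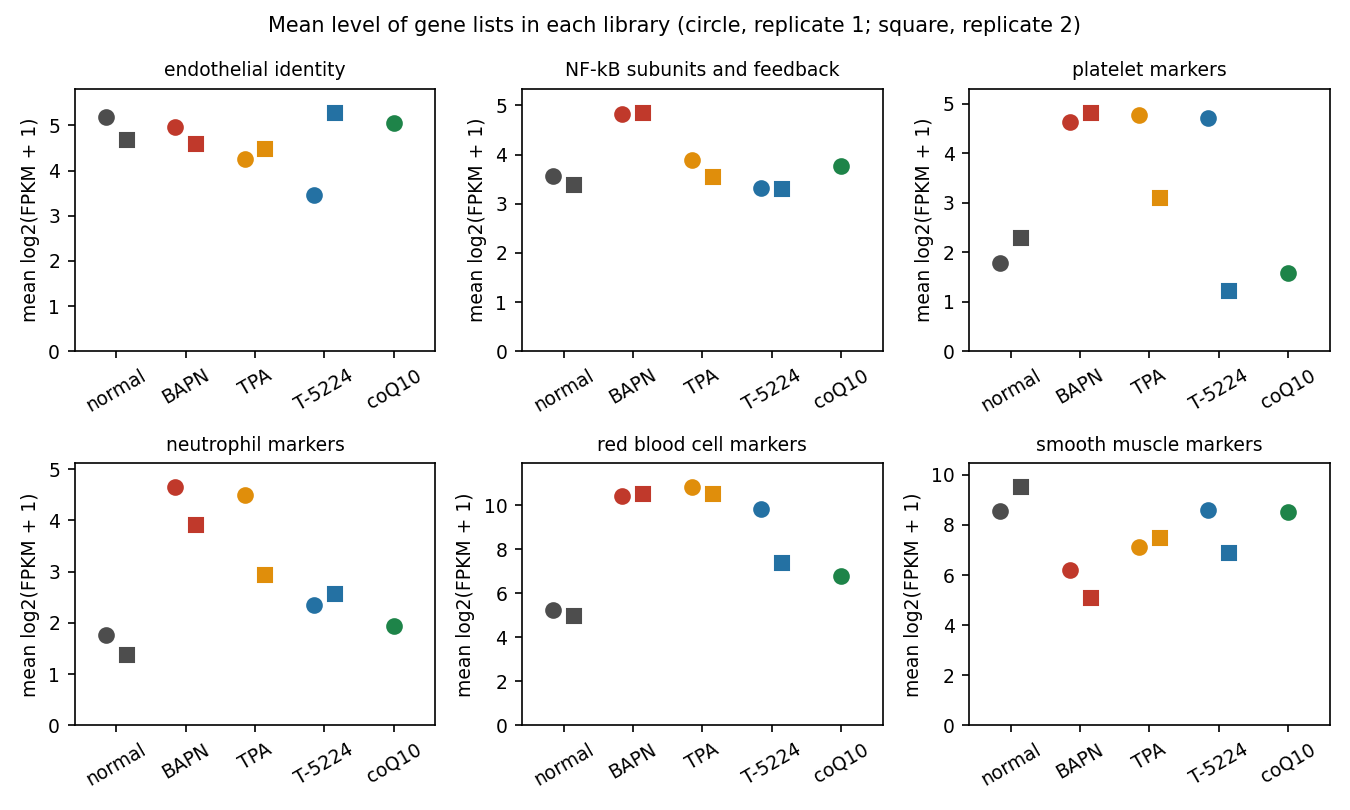
Mean log2 of FPKM + 1 over the genes of 6 lists in each library; each point is 1 library, a circle for replicate 1 and a square for replicate 2. The NF-kB list is highest in the 2 BAPN libraries, whereas platelet, neutrophil and red blood cell markers are also high in TPA replicate 1.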

How the data were processed

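RNA was extracted with Trizol and sequenced from TruSeq RNA libraries, per the labels' protocols. The deposited tables, 1 for each library, give FPKM by gene symbol and leave out genes at 0, and mm10 is named per the submitters' processing notes. Aligner, counting tool and annotation: not given in the sources used here. Absent genes were given 0 over the 17179 symbols, and the 12997 with a mean of at least 1 FPKM over the 9 libraries were kept. Values were transformed to log2 of FPKM + 1. The fit in limma 3.58.1, run in R 4.3.3, had 5 group means, 4 residual degrees of freedom and an intensity trend. Tests were two-sided, with Benjamini-Hochberg adjustment within a comparison. A second fit followed subtraction of the library mean of Pecam1 and Cdh5. The procedure was checked on simulated data. Tables and motifs were handled in python 3.11.15 with numpy 2.4.6, pandas 2.3.3 and scipy 1.17.1, and plots were drawn with matplotlib 3.10.9.

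All 6 members were described in full. Of each gene list, counts were given and up to 4 tested genes with the smallest p in BAPN against normal, plus any that passed, could be named, of which a selection is printed. For likeness, the 3 genes with the highest Pearson's r were taken, without clone-like symbols. The members and lists were chosen with earlier results of these data known. Alternatives covered the offset, the filter, the scaling, the libraries in the fit, the replicate block and the reference genes. The unknown depth gives no counting interval, and it limits the precision of values near 0 such as those of Sele outside BAPN.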

Additional observations from a re-analysis of the deposited data

How the results depend on the processing

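The log2 differences of Sele, Selp and Icam1 in BAPN against normal kept their sign in all 16 alternatives, and their calls did not. The number of genes called in BAPN against normal was 424 in the reported fit, 20 with haemoglobin left out, 226 with median-of-ratios scaling, 53 with no filter, 152 with an offset of 0.1 FPKM, 37 with only the compared groups and 0 to 3670 with 1 library left out (0 without BAPN replicate 1). For TPA against BAPN it was 5, then 2 with haemoglobin left out, 9 with no filter, 0 with the offset of 0.1, 972 with only these groups and 0 to 9 with 1 library left out. For T-5224 against BAPN it was 4, then 2 with haemoglobin left out, 35 with median-of-ratios scaling, 2 with no filter, 2 with the offset of 0.1, 0 with only these groups and 0 to 85 with 1 library left out. For coQ10 against BAPN it was 2, then 10 with median-of-ratios scaling, 7 with no filter, 1 with the offset of 0.1, 0 with only these groups and 0 to 104 with 1 library left out. For TPA against T-5224 it was 2, then 8 with no filter, 0 with the offset of 0.1, 0 with only these groups and 0 to 666 with 1 library left out. With normal replicate 1 and T-5224 replicate 2 left out together, an alternative chosen after seeing the data, these 5 counts were 4032, 1023, 2245, 2967 and 584.

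Of the 6 members, 3 were called in BAPN against normal, 1 with haemoglobin left out, 0 with only the compared groups and 0 to 3 with 1 library left out. In TPA against BAPN 0 were called, and 3 with only these groups or with both libraries left out. In T-5224 against BAPN 0 were called, 3 with median-of-ratios scaling and 4 with both libraries left out. In coQ10 against BAPN 0 were called, 3 with both left out and 0 to 1 with 1 left out, and in TPA against T-5224 0 to 1 with 1 left out. Relative to Pecam1 and Cdh5, 0 of 4 were called in each comparison. With both libraries left out, 3, 3, 4 and 3 were called in BAPN against normal and in TPA, T-5224 and coQ10 against BAPN, among 3881, 4090, 10628 and 2134 genes of 12997, and with 1 left out 0 to 3, 0 to 3, 0 to 4, 0 to 3 and, for TPA against T-5224, 0 to 3. Without the reference genes, Sele and Icam1 had passed in BAPN against normal in the reported fit. There Sele missed the threshold with the offset of 0.1 (limma adjusted p = 0.0536) and Icam1 with no filter (0.051). The cause of these shifts was not tested.

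None of the differences whose sign turned had passed in the reported fit. Pecam1 in TPA against T-5224 passed at -1.45 without T-5224 replicate 1 and was 0.26 without replicate 2. In BAPN against normal Pecam1 was 0.40 with median-of-ratios scaling. There Cdh5 was 0.023 with haemoglobin left out, 0.48 with median-of-ratios scaling, 0.31 with both libraries left out and -0.52 to 0.31 with 1 left out. In TPA against BAPN Vcam1 was -0.16 with median-of-ratios scaling and -0.57 to 0.64 with 1 library left out. In T-5224 against BAPN Vcam1 was 0.16 with both left out and -1.16 to 0.16 with 1 left out, and Cdh5 was -2.17 to 0.11 with 1 left out. Pecam1 there was -0.40 with haemoglobin left out, -0.19 with median-of-ratios scaling, -0.68 with both left out and -0.68 to 1.04 with 1 left out. In coQ10 against BAPN median-of-ratios scaling gave -0.063 for Pecam1 and -0.15 for Cdh5. In TPA against T-5224, leaving out 1 library gave -0.17 to 0.67 for Sele, -0.13 to 1.20 for Vcam1, -1.45 to 0.26 for Pecam1 and -0.66 to 1.63 for Cdh5. With both left out Vcam1 was -0.13 and Pecam1 0.26, and with haemoglobin left out Pecam1 was 0.10.

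Signs relative to Pecam1 and Cdh5 turned too. Vcam1 in TPA against BAPN was -0.19 to 1.23 with 1 library left out. In T-5224 against BAPN Vcam1 was 0.53 with Cdh5 alone as the reference. It was 1.59 with both libraries left out and also without T-5224 replicate 2 alone. Over all fits with 1 left out it was -1.73 to 1.59. In TPA against T-5224 the values with 1 left out were -0.27 to 0.88 for Sele, -0.51 to 1.65 for Selp, -0.36 to 2.06 for Icam1 and -1.07 to 2.25 for Vcam1, the lowest also with both left out. There Sele was -0.23 with Cdh5 alone, and without T-5224 replicate 1 Selp, Icam1 and Vcam1 passed among 3748 genes of 12997.

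With the replicate block, 8 genes and 0 members were called in BAPN against normal (Sele 0.0834, Selp and Icam1 0.0721 as limma adjusted p), 2 genes in TPA against BAPN, 0 in T-5224 against BAPN and 2 in TPA against T-5224. The replicate numbers did not pair the libraries: over the 6 pairs of groups the correlation of replicate 1 minus replicate 2 ran from -0.44 to 0.18 across genes. The block could not be run for coQ10, which has 1 library. With 1 or 2 libraries in a group and an unknown depth, small differences of Vcam1, Pecam1 and Cdh5 were not detectable.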
